A study of Rattus norvegicus with 2 samples.

Results

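The genes described here are 39 genes of DNA synthesis and mitosis, chosen by symbol as a cell cycle module. No cut on their values was used, but earlier results of these data were known when they were chosen. The deposited gene list holds 25399 genes and includes 38 of the 39; UMIs of Ccnb2 (cyclin B2) were not analysed here, and it enters only the search of promoters. The study compared the meniscus, the fibrocartilage pad of the knee, of aged and young rats (Rattus norvegicus), with 1 single-cell RNA library per age. Neither the strain, sex and exact age of the animals nor the number of animals behind a library is stated in the labels. In both groups the tissue was digested with protease and collagenase, live cells were sorted by flow cytometry, and the 10x Genomics 3′ chemistry counted transcripts as unique molecular identifiers (UMIs). After cells with fewer than 500 genes or over 20% mitochondrial UMIs were removed, 6085 aged cells (median 3686 UMIs) and 8773 young cells (median 3846 UMIs) remained of 8422 and 9914 deposited barcodes. The deposited barcodes held 47228750 and 65051972 UMIs. The libraries shared 18 cell barcodes. With 1 library per age no test between ages was possible, so levels and shares are given side by side, with exact 95% intervals that cover counting error only.

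A cell that divides first copies its DNA (S phase) and then separates the copies (G2 and mitosis). The MCM proteins form the ring-shaped helicase that unwinds DNA, and PCNA, ribonucleotide reductase (Rrm1 and Rrm2) and thymidylate synthase (Tyms) serve synthesis itself. Cyclin B with Cdk1, the Aurora and Polo kinases, the kinetochore proteins and the ubiquitin ligase APC/C drive chromosome segregation. These genes are transcribed mainly in dividing cells, which in adult bone marrow are abundant among B cell precursors, red cell precursors and myeloid progenitors, while matrix-producing cells of adult fibrocartilage divide rarely.

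A cell was called cycling when its UMIs of Top2a (DNA topoisomerase II alpha) and Mki67 (the Ki-67 chromosome surface protein) summed to at least 3. By this rule 19.9% of the aged library (1210 of 6085, interval 18.9 to 20.9) was cycling. In the young library it was 20.1% (1766 of 8773, interval 19.3 to 20.98). Cycling cells had more UMIs than the rest: the median was 9885 against 2802 UMIs in the aged library and 12517.5 against 3354 in the young. A minimum in raw UMIs is passed more easily by deeper cells, so the rule itself favours them. Just outside the threshold, 123 aged and 170 young cells had 2 UMIs; just inside it, 85 and 87 had 3. Raw UMIs of the 2 genes were spread differently, as cells with a sum of 30 or more made up 4.39% of aged and 9.28% of young cells. With each cell thinned to 2000 UMIs and shallower cells left out, the shares were 14.8% and 13.3%. The order of the libraries turned with thinning and with a stricter cell filter, while the minimum changed only the size of the gap. A filter of 1000 genes and 10% mitochondrial UMIs gave 33.7% aged and 24.6% young, and a minimum of 1 UMI gave 26.2% and 31.3%.

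Lineages were first set by 1 or 2 markers each, at a minimum of 2 UMIs. By these gates 47.1% of 104 aged and 34.9% of 1087 young Cd79a cells (B lineage) were cycling. The shares were 64.1% of 64 and 54.0% of 163 Alas2 cells (erythroid), and 44.7% of 47 and 48.8% of 41 Mpo cells (myeloid progenitor gate). They were 8.74% of 732 and 13.3% of 1300 Camp cells (neutrophil lineage), and 24.0% of 221 and 18.8% of 144 Cd3e or Nkg7 cells (T or NK). Of the cells with Dcn and no Ptprc (stromal), 10 of 530 aged (1.89%) and 0 of 85 young were cycling; a count of 0 of 85 allows a share of up to 3.53% at 3 counts, and the exact interval reaches 4.25%. Most cycling aged cells, 855 of 1210, passed no gate, as did 871 of the 1766 young.

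The markers of these gates did not all hold up against other genes of the same lineage. Cd79a gave 875 aged and 5143 young UMIs in all, against 17012 and 74881 for Cd79b, its partner in the B cell receptor. Of the cycling cells that passed no gate, 719 of 855 aged and 803 of 871 young cells had at least 3 UMIs of 5 B lineage genes (Cd79a, Cd79b, Vpreb1, Igll1 and Ebf1). The gates of other lineages also took in cells with B lineage RNA: a Cd79b UMI was found in 79.2% of 173 cycling young Camp cells and in 80.0% of 10 cycling aged stromal cells. Of the Mpo gate, 33 of 41 young and 7 of 47 aged cells had at least 3 UMIs of the 5 genes. Most young cells of that gate thus carried B lineage RNA. Another 148 aged and 124 young Mpo cells also passed the T or NK gate and were kept apart. Cycling cells of the T or NK gate mostly passed through Nkg7, with Cd3e in 17.0% (aged) and 14.8% (young) of them. In that gate 8 of 134 aged cells with at least 2 Cd3e UMIs were cycling (5.97%), against 45 of 87 without (51.7%); the young values were 4 of 74 (5.41%) and 23 of 70 (32.9%).

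Marker-list gates, chosen after this was seen, therefore stand beside the first ones and are used from here on unless the Cd79a gate is named. A B lineage cell had at least 3 UMIs of the 5 genes, and every other gate required fewer. T or NK cells were set by Cd3e and Klrd1, with fewer than 2 UMIs of Mpo and of Camp. Mpo cells were kept whatever their Nkg7, which 90.6% of cycling aged and 98.4% of cycling young Mpo cells carried, with Cd3e in none of them. Cells that passed several gates stayed apart, and 63 of 255 such aged cells and 285 of 704 young were cycling. Ebf1 had a UMI in 47.7% of aged and 61.2% of young stromal cells of the first gates, and Cd79b in 7.17% and 23.5%. Of those stromal cells, 88 of 530 aged and 27 of 85 young reached 3 UMIs of the 5 genes and were kept apart. Stromal cells below the Dcn minimum could enter the B lineage gate, which was not tested. In that gate 97.8% of aged and 99.8% of young cells had a Cd79b UMI. RNA of other cell types was found in gated cells. S100a8, a neutrophil gene, had a UMI in 45.9% of cycling aged and 92.3% of cycling young B lineage cells, and in 38.7% of aged and 88.1% of young stromal cells. The part of such RNA in the results was not tested.

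By the marker-list gates at full depth, the cycling share spanned from about none in stromal cells to most cells of the erythroid lineage. B lineage cells were cycling at 26.2% in the aged library (772 of 2949, interval 24.6 to 27.8) and 19.6% in the young (1184 of 6052, interval 18.6 to 20.6). Erythroid cells had the highest shares, 34 of 48 aged (70.8%, 55.9 to 83.0) and 77 of 129 young (59.7%, 50.7 to 68.2). Myeloid progenitors followed with 96 of 178 (53.9%, 46.3 to 61.4) and 61 of 110 (55.5%, 45.7 to 64.9). Their cells were the deepest, at medians of 22169 and 22538 UMIs, and thinned to 2000 UMIs their shares were 11.5% and 6.48%. Thinned in the same way, erythroid cells were at 47.9% and 33.6%, and B lineage cells at 25.9% and 14.03%. Myeloid progenitors thus fell below the B lineage once cells were thinned. Camp cells were at 60 of 716 (8.38%, 6.46 to 10.7) and 67 of 991 (6.76%, 5.28 to 8.51). Nkg7 had a UMI in 60.0% of the cycling aged Camp cells and 58.2% of the young, against 13.3% and 12.4% of the other Camp cells.

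The remaining lineages had few cycling cells. T or NK cells were at 8 of 146 (5.48%, 2.40 to 10.5) and 3 of 87 (3.45%, 0.717 to 9.75). Stromal cells were at 3 of 442 (0.679%, 0.140 to 1.97) in the aged library, and 0 of 59 in the young, which allows up to 5.08% at 3 counts (the exact interval reaches 6.06%). Chondrocytes, the cartilage cells, were set by Snorc and Chad without Ptprc. Of these, 1 of 42 aged (2.38%) and 0 of 130 young cells were cycling, and the young ones were deep, at a median of 14983.5 UMIs. Macrophages with C1qa were at 5 of 115 (4.35%) and 5 of 44 (11.4%). Mature neutrophils with Cxcr2, which no longer divide, were too few to set a background, at 2 of 14 and 0 of 17. The intervals of the 2 libraries overlapped in every lineage of the marker-list gates except B cells.

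**Figure D1:**
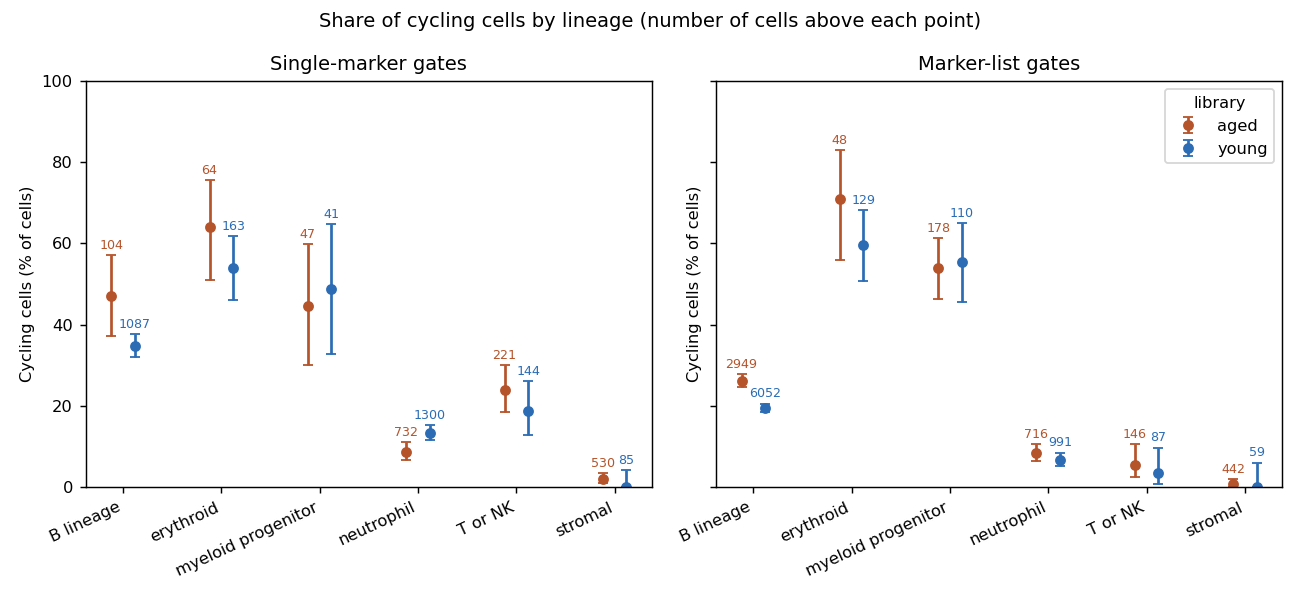
Percent of cells with at least 3 UMIs of Top2a and Mki67 (vertical axis) in 6 lineages of the aged and young libraries, by single-marker gates (left) and marker-list gates (right); bars are exact 95% intervals with the number of cells printed over each point. Erythroid cells are highest and stromal cells lowest in both panels; aged B lineage cells (47.1%) lie above aged myeloid progenitors (44.7%) on the left, and the T or NK share is 24.0% aged on the left and 5.48% on the right.

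Within the B lineage the share differed by stage gene. Cells with at least 3 UMIs of Igll1 and Vpreb1, the surrogate light chain of large precursor B cells, had a cycling share of 61.9% in the aged library (257 of 415, interval 57.1 to 66.6) and 62.1% in the young (393 of 633, interval 58.2 to 65.9). Cells with Dntt, the terminal transferase of pro-B cells, were at 31 of 138 (22.5%) and 82 of 294 (27.9%). Cells with Rag1, which cuts the immunoglobulin genes, were at 17 of 201 (8.46%) and 81 of 1024 (7.91%). Cells with Ms4a1 (CD20), a gene of later B cells, were at 6 of 125 (4.80%) and 39 of 698 (5.59%). In each of these 4 stages the intervals of the aged and young shares overlapped.

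The stages took different shares of the B lineage cells in the 2 libraries. Surrogate light chain cells were 14.1% of aged and 10.5% of young B lineage cells. Rag1 cells were 6.82% and 16.9%, and Ms4a1 cells 4.24% and 11.5%, so both of the stages with few cycling cells were scarcer in the aged library. Most cells, 2264 of 2949 aged and 3885 of 6052 young, passed none of the 4 rules, and 22.0% (20.3 to 23.7) and 18.1% (16.9 to 19.3) of those were cycling. Depth also differed between the libraries: B lineage cells had a median of 2788 UMIs in the aged and 3516.5 in the young. Thinned to 2000 UMIs, with 961 aged and 300 young cells left out as shallower, the B lineage shares were 25.9% and 14.03%. Under the filter of 1000 genes and 10% mitochondrial UMIs they were 45.5% and 22.6%, and with 1 UMI of Top2a or Mki67 they were 31.9% and 29.8%. The aged share was the higher one under each of these settings.

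**Figure D2:**
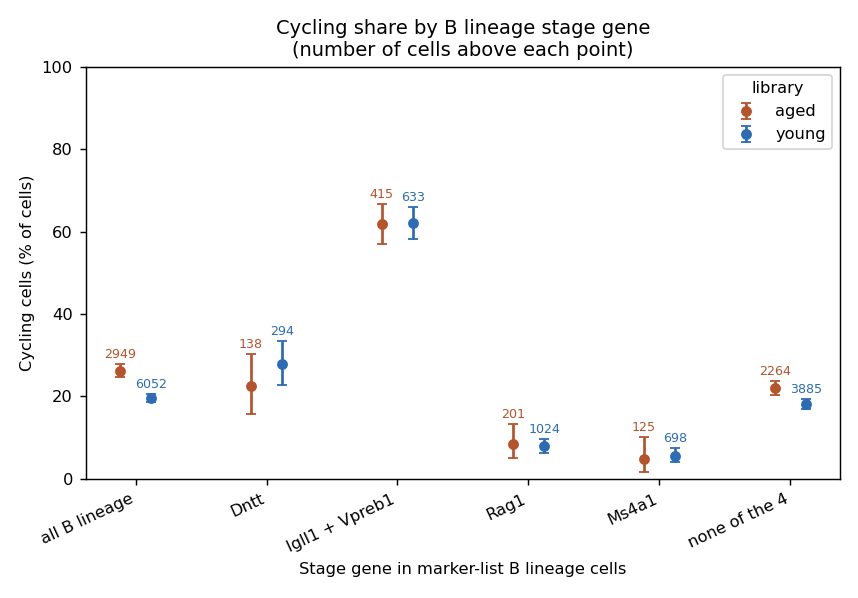
Percent of cycling cells (vertical axis) among marker-list B lineage cells with each stage gene, in the aged and young libraries; bars are exact 95% intervals, the number of cells is printed over each point, and the stage sets may share cells. Surrogate light chain cells stand at 61.9% and 62.1%, and Rag1 and Ms4a1 cells below 10% in both libraries.

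The other 36 members, which the rule for cycling cells did not use, were concentrated in cycling cells. In B lineage cells of either library all 36 were at least 2-fold higher per UMI in cycling than in other cells, where 46.9% (aged) and 12.5% (young) of all genes tested were. Their median log2 ratio was 4.30 aged and 4.48 young, against 0.94 and -0.19 over all genes. In the aged library AABR07060872.1, a feature without a gene name, held 25.9% of B lineage UMIs but 2.30% of those in cycling cells. In the young it held 1.41% and 0.518%. Aged cells below the minimum thus had more of it, which lowers the levels per UMI of their other genes. The part of this feature in these ratios was not tested. Ube2c, the ubiquitin-conjugating enzyme of the APC/C, had 97.0% and 97.4% of its UMIs in the 26.2% and 19.6% of B lineage cells that were cycling. Cycling cells held 39.9% and 49.3% of all UMIs of the lineage. The replication genes were less confined: Mcm3 had 79.9% and 73.1% of its UMIs in cycling cells, and Pcna, the sliding clamp of DNA polymerase, 82.9% and 83.3%. Myeloid progenitors differed: 23 (aged) and 22 (young) of 36 members were at least 2-fold higher in cycling cells, where 8.03% and 9.62% of all genes were. The medians were 1.80 and 1.65 for members and 0.22 in both libraries for all genes. Their cells below the minimum still held 1242 (aged) and 1386 (young) CPM (counts per 1000000 UMIs) summed over the 12 S members, against 289 and 396 in the corresponding B lineage cells. The aged B lineage value is lowered by AABR07060872.1 in its total, by an amount that was not tested, so those 2 values should not be ranked.

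The members were split into 12 genes of S phase (Mcm2 to Mcm7, Pcna, Pclaf, Rrm1, Rrm2, Tyms and Cdca7) and 19 of G2 and M, Ccnb2 not counted. In cycling cells the S members took 34.4% (aged) and 32.4% (young) of the UMIs of both groups in the B lineage, 34.6% and 29.4% in the erythroid lineage, 48.9% and 45.4% in myeloid progenitors, and 19.3% and 25.7% in Camp cells. By these gates myeloid progenitors had the largest S share and Camp cells the smallest in both libraries. By the single-marker gates Mpo cells had the largest share (45.3% and 58.9%). Camp cells, at 29.3% and 32.7%, were not below B lineage cells, at 29.2% and 28.95%. In those gates 18 of 20 cycling young Mpo cells and 132 of 173 cycling young Camp cells had at least 3 UMIs of the 5 B lineage genes. In the aged library it was 3 of 21 and 30 of 64. These shares thus mix lineages, most of all in the young library, and are no second measure of the order. In B lineage cells below the cycling minimum the S members took 62.7% and 60.5%.

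Within cycling B lineage cells the 2 groups differed. Cells with at least 2 UMIs of Ccnb1 (cyclin B1), Cdc20 (an APC/C activator) and Plk1 (Polo kinase), all mitotic, were 453 aged and 879 young; cells with none of these UMIs were 195 and 168. All 16 other G2/M members were higher in the cells with mitotic UMIs in both libraries, where 56.9% (aged) and 58.8% (young) of all genes with at least 20 UMIs were higher. Their median log2 ratios were 1.18 aged and 1.90 young, against 0.067 and 0.088 for all genes. Ube2c was at 1156 CPM in aged cells with mitotic UMIs and 125 CPM in those without, and at 1041 and 54.0 CPM in the young, log2 ratios of 3.21 and 4.27. Aurka, the spindle pole kinase, was at 121 and 24.5 CPM aged, and 149 and 22.1 CPM young. Of the 12 S members, 11 aged and 12 young were lower in these cells, as were 43.1% and 41.2% of all genes; the exception was Cdca7 in the aged library, at 0.21. Pcna was at 471 against 858 CPM aged and 464 against 1005 CPM young. Fbxo5 (Emi1), an inhibitor of the APC/C, went with the S members, at log2 ratios of -0.57 and -0.69. Cells with mitotic UMIs were also deeper, at medians of 10139 against 6251 UMIs aged and 12264 against 9676.5 young. The split was chosen after values were seen, and the part of depth in it was not tested.

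**Figure D3:**
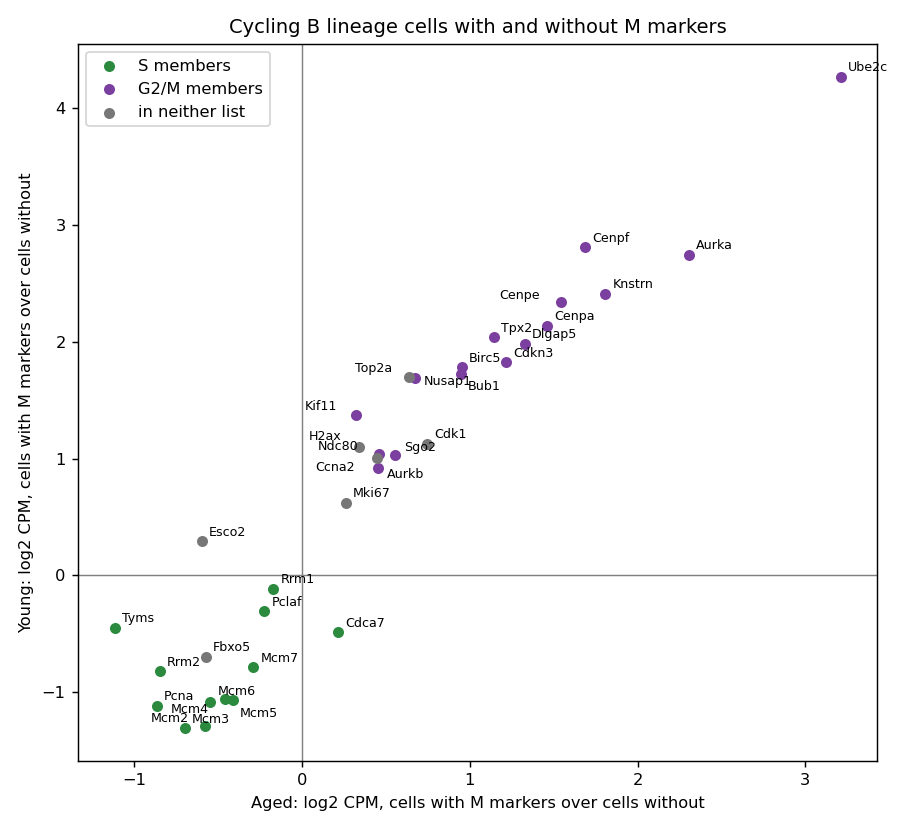
log2 ratio of CPM in cycling B lineage cells with at least 2 UMIs of Ccnb1, Cdc20 and Plk1 over cells with none, aged library (horizontal axis) against young (vertical axis), 1 point per member without those 3 genes. G2/M members lie above 0 on both axes, and S members below 0 except Cdca7 in the aged library.

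The 2 groups are set apart here by the letters before their start sites as well. RefSeq promoters (GRCr8) were matched by symbol for 31 of the 39 members. The 250 bases before each start were searched on both strands for the CHR element (TTTGAA or TTTAAA), the CCAAT box, and E2F sites (TTCCCGC or TTGGCGC or TTCGCGC or TTGCCGC). A CHR was found in 15 of 16 G2/M promoters, that of Ccnb2 among them, and 3 of 10 S promoters, against 25.4% of all 33469 promoters in the table. An E2F site was found in 2 of 16 (Ccnb2 and Dlgap5) and 8 of 10, against 7.59%. A CCAAT box was found in 12 of 16 and 7 of 10, against 34.0%, and CHR and CCAAT together in 12 of 16 and 1 of 10, against 9.04%. The GRCr8 windows are those of the reference and say nothing of binding in these cells. The 120 bases before the start are shown for the 3 mitotic genes used above and for 3 helicase genes, so that the differing letters can be seen, with CHR, CCAAT and E2F matches in capitals (ATTGG is a CCAAT box on the other strand).
Ccnb1 (chr2:33655226-33655345, minus strand): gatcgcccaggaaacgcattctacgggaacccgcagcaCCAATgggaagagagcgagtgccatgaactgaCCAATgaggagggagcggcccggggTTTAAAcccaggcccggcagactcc
Cdc20 (chr5:137255800-137255919, minus strand): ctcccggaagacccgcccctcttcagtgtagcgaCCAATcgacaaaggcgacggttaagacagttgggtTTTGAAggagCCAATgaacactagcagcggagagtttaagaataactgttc
Plk1 (chr1:186147538-186147657, plus strand): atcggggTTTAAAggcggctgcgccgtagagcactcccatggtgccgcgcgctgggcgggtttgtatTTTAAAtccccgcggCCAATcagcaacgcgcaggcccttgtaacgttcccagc
Mcm5 (chr19:13488693-13488812, plus strand): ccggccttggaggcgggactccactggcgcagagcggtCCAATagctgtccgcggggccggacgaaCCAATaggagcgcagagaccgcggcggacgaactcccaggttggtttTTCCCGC
Mcm6 (chr13:42404353-42404472, minus strand): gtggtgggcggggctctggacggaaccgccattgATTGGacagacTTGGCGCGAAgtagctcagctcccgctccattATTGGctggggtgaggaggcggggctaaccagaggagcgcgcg
Mcm7 (chr12:22163179-22163298, minus strand): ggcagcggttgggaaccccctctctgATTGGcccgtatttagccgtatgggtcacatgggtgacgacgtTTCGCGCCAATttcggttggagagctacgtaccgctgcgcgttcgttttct
The mitotic genes carry 1 or 2 CHR elements and 1 or 2 CCAAT boxes in this window and no E2F site, and the 3 helicase genes shown 1 or 2 E2F sites and no CHR. Not all helicase genes are alike over 250 bases: Mcm2 had 2 CHR elements beside 2 E2F sites, and Mcm3 had no E2F site. An E2F site and a CCAAT box overlap in Mcm7, and E2F matches on both strands overlap in Mcm6. Among the 16 G2/M members with a matched promoter only Ndc80 had no CHR in its 250 bases.

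Levels of the members in cycling cells differed between lineages by gene; counts of 3′ ends are not scaled by length. The members with the highest and lowest level of each role were picked over the Cd79a cells of both libraries pooled, and their order need not hold in other lineages. Of the helicase genes the highest was Mcm7, and in cycling cells it was at 251 and 316 CPM (aged and young) in the B lineage. It stood at 264 and 221 CPM in erythroid cells, 143 and 177 in myeloid progenitors, and 39.3 and 101 in Camp cells. Mcm5, the lowest helicase gene in pooled Cd79a cells, was at 140 and 142 CPM, 105 and 87.4, 123 and 101, and 46.2 and 70.4 in the same order. Mcm4 lay below it in cycling myeloid progenitors, at 67.3 and 83.3 CPM. Camp cells thus held the least Mcm7 and Mcm5 RNA of the 4 lineages in both libraries.

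Among genes of synthesis, H2ax, the histone variant marked at DNA breaks, was at 523 and 740.3 CPM in cycling B lineage cells, 249.99 and 297 in erythroid cells, 175 and 233 in myeloid progenitors, and 234 and 398 in Camp cells. Rrm2, the lowest in pooled Cd79a cells, was at 78.1 and 71.6 CPM in the cycling B lineage cells, and at most at 79.4 CPM in the other 3 lineages. Cdca7, a nuclear protein that recruits a chromatin remodeller, differed widely between lineages: it was at 299 and 294 CPM in cycling B lineage cells and at 138 and 165 in myeloid progenitors, but at 4.67 and 6.90 in erythroid cells, from 2 and 6 UMIs. Tyms went the other way, at 72.0 and 122 CPM in the B lineage and 138 and 175 in erythroid cells.

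Among cyclin and kinase genes, Cdkn3, a phosphatase of cyclin-dependent kinases, was at 453 and 542 CPM in cycling B lineage cells, 332 and 367 in erythroid cells, 137 and 136 in myeloid progenitors, and 361 and 344 in Camp cells. Ccna2 (cyclin A2) was at 158 and 192, 133 and 176, 73.4 and 70.7, and 66.7 and 113 CPM in that order. Ube2c was at 864 and 846, 783 and 689, 296 and 349, and 558 and 671 CPM. Fbxo5 was at 539 and 523 CPM in the B lineage, 425 and 245 in erythroid cells, and 83.2 and 59.7 in myeloid progenitors, the widest gap between those lineages in this group.

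Among kinetochore genes, Cenpf was highest, at 521 and 687 CPM in cycling B lineage cells, 699 and 770.2 in erythroid cells, 128 and 214 in myeloid progenitors, and 243 and 283 in Camp cells. Ndc80, which binds microtubules, was at 134 and 202, 32.7 and 108, 35.6 and 47.1, and 54.7 and 79.3 CPM. The aged erythroid value rests on 14 UMIs. Among spindle genes Nusap1 was at 381 and 489.9, 161 and 267, 65.4 and 107, and 104 and 183 CPM, and Aurka, the lowest in pooled Cd79a cells, at 94.7 and 123, 145 and 113, 52.96 and 49.1, and 75.3 and 93.8 CPM. In aged erythroid cells Plk1 was lower than Aurka, at 72.4 CPM. Mki67 and Top2a, which chose the cells, had different ratios by lineage. Mki67 was at 921 and 1325 CPM in the B lineage and 1603 and 1542 in erythroid cells, and Top2a at 1204 and 1170.0 against 348 and 384 CPM.

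Over all their cells, T or NK and stromal cells held less of the mitotic gene Ube2c than B lineage cells. Ube2c was at 75.1 (aged) and 36.9 (young) CPM in T or NK cells and 3.96 and 6.36 in stromal cells, against 356 and 428 in B lineage cells. Rrm2 had no UMI in stromal cells of either library, under 1.19 (aged) and 3.18 (young) CPM at 3 counts. Pcna lay closer, at 171 and 154 CPM in T or NK cells and 117 and 85.8 in stromal cells, against 283 and 337 in the B lineage.

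Other members that were at least 1.5-fold apart between the libraries in Cd79a cells had these levels in cycling cells, aged then young. Cdc20 was at 185 and 281 CPM in the B lineage, 147 and 183 in erythroid cells, 64.3 and 94.8 in myeloid progenitors, and 125 and 157 in Camp cells. Cenpe was at 142 and 246, 91.1 and 139, 43.1 and 64.7, and 103 and 119 CPM, and Sgo2 at 219 and 329, 229 and 195, 43.9 and 56.2, and 82.1 and 134 CPM. Both were thus lowest in myeloid progenitors in either library. Plk1 was at 105 and 162, 72.4 and 149, 36.3 and 67.7, and 92.4 and 154 CPM, lower in the aged library in all 4 lineages. Pclaf, a PCNA-binding factor, was at 190.3 and 274, 133 and 164, 62.0 and 121, and 39.3 and 88.2 CPM, likewise lower in the aged library in each. Esco2, which acetylates cohesin during S phase, was at 161 and 173, 231 and 157, 21.6 and 33.6, and 46.2 and 63.7 CPM.

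**Figure D4:**
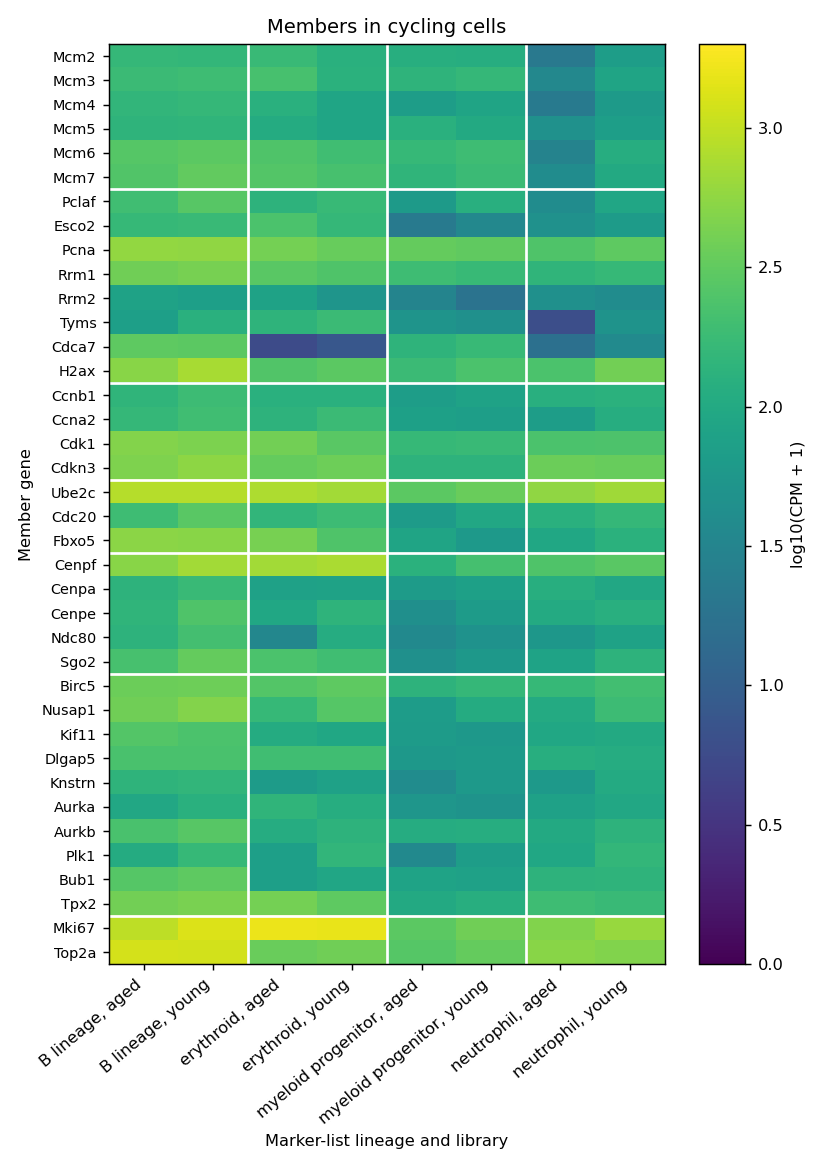
Level of each member (rows, grouped by role) in cycling cells of 4 marker-list lineages of the aged and young libraries (columns), as log10 of CPM + 1; white lines part roles and lineages. Cdca7 is at 4.67 and 6.90 CPM in erythroid cells and at 299 and 294 in B lineage cells, and the myeloid progenitor columns are low for the mitotic genes.

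Between ages, the summed B lineage RNA held less of every member in the aged library, but so it did of most genes. Called apart means at least 1.5-fold in CPM, over genes with at least 20 UMIs. In Cd79a cells 0 of 38 members were higher in the aged library and 15 were lower, where 3.5% of 9339 genes tested were higher and 55.1% lower. The median log2 ratio of aged over young was -0.49 for members and -0.65 for all genes. In B lineage cells of the marker list the counts were 0 and 16 of 38, where 5.61% of 11636 genes were higher and 51.6% lower, with medians of -0.51 and -0.60. In both gates the members were lower in the aged library no more often than genes at large.

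A single feature moved with this shift. AABR07060872.1, a feature without a gene name, held 25.9% of B lineage UMIs in the aged library and 1.41% in the young (26.9% and 0.522% in Cd79a cells). With it left out of the totals 4 members were lower and none higher in Cd79a cells, where 27.6% of all genes were lower and 8.21% higher. In the marker-list cells 1 was lower and none higher, where 22.4% of all genes were lower and 9.41% higher. The medians of all genes were then -0.21 and -0.19. Scaling by edgeR's TMM or by DESeq2's size factors moved the median of all genes in Cd79a cells from -0.65 to -0.04 and -0.02, and the members' median to 0.12 and 0.14, with 2 members lower and none higher under either. Of all genes 21.2% and 20.6% were then lower, and 12.2% and 12.97% higher. Thinning to 2000 UMIs left out 17 of 104 aged and 13 of 1087 young Cd79a cells as shallower, so both depth and cells changed, and there the direction turned. Of the members 20 were higher in aged cells and 1 lower, with a median of 0.64, where 11.2% of all genes were higher and 34.9% lower, with a median of -0.27. With each cell counted equally 8 members were higher and 1 lower, where 9.92% of all genes were higher and 33.9% lower. The direction of the members over all Cd79a cells thus changed with these settings.

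Cycling cells alone gave a narrower comparison, in which that feature took 2.30% (aged) and 0.518% (young) of UMIs. Over cycling B lineage cells 0 of 38 members were higher in the aged library and 6 were lower, where 6.9% of 10227 genes were higher and 14.4% lower. The medians were -0.17 for members and -0.08 for all genes. Of these 6 genes, 3 are among the 5 kinetochore and centromere members.

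Cenpe, the kinetochore motor, was at 142 CPM (1166 UMIs) in the aged and 246 CPM (4297 UMIs) in the young library, a log2 ratio of -0.79 (-0.88 to -0.70). Ndc80 was at 134 and 202 CPM (-0.60), and Sgo2 (shugoshin), which protects centromeric cohesion, at 219 and 329 CPM (-0.59). The other kinetochore members lay nearer: Cenpf was at 521 and 687 CPM (-0.40) and Cenpa, the centromeric histone, at 135 and 170.0 CPM (-0.33). All 5 ratios were below 0, as were those of 28 of the 38 members and of 6000 of the 10227 genes. The 6 lower members of 38 were a share near the 14.4% of all genes, and of other G2/M genes, which are not members, 2 of 30 were lower.

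Plk1 was at 105 and 162 CPM (-0.62), Cdc20 at 185 and 281 CPM (-0.60), and Tyms, the S phase gene of the 6, at 72.0 and 122 CPM (-0.76, -0.89 to -0.62). Of the 10 spindle and kinase members Plk1 alone was called, and their ratios ran up to 0.19 for Kif11, the spindle motor, at 261 and 229.5 CPM. The 6 helicase genes lay between -0.33 (Mcm7) and 0.07 (Mcm2), with none called. Ube2c (0.03), Fbxo5 (0.04), Pcna (0.04) and Top2a (0.04) were nearly level, while Mki67 was at 921 and 1325 CPM (-0.52, -0.56 to -0.49), within the call's limit. Cells with mitotic UMIs, as defined above, were 58.7% of aged and 74.2% of young cycling B lineage cells, and cycling cells had medians of 8108 and 11470.5 UMIs. The parts of depth and of phase in these ratios were not tested.

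**Figure D5:**
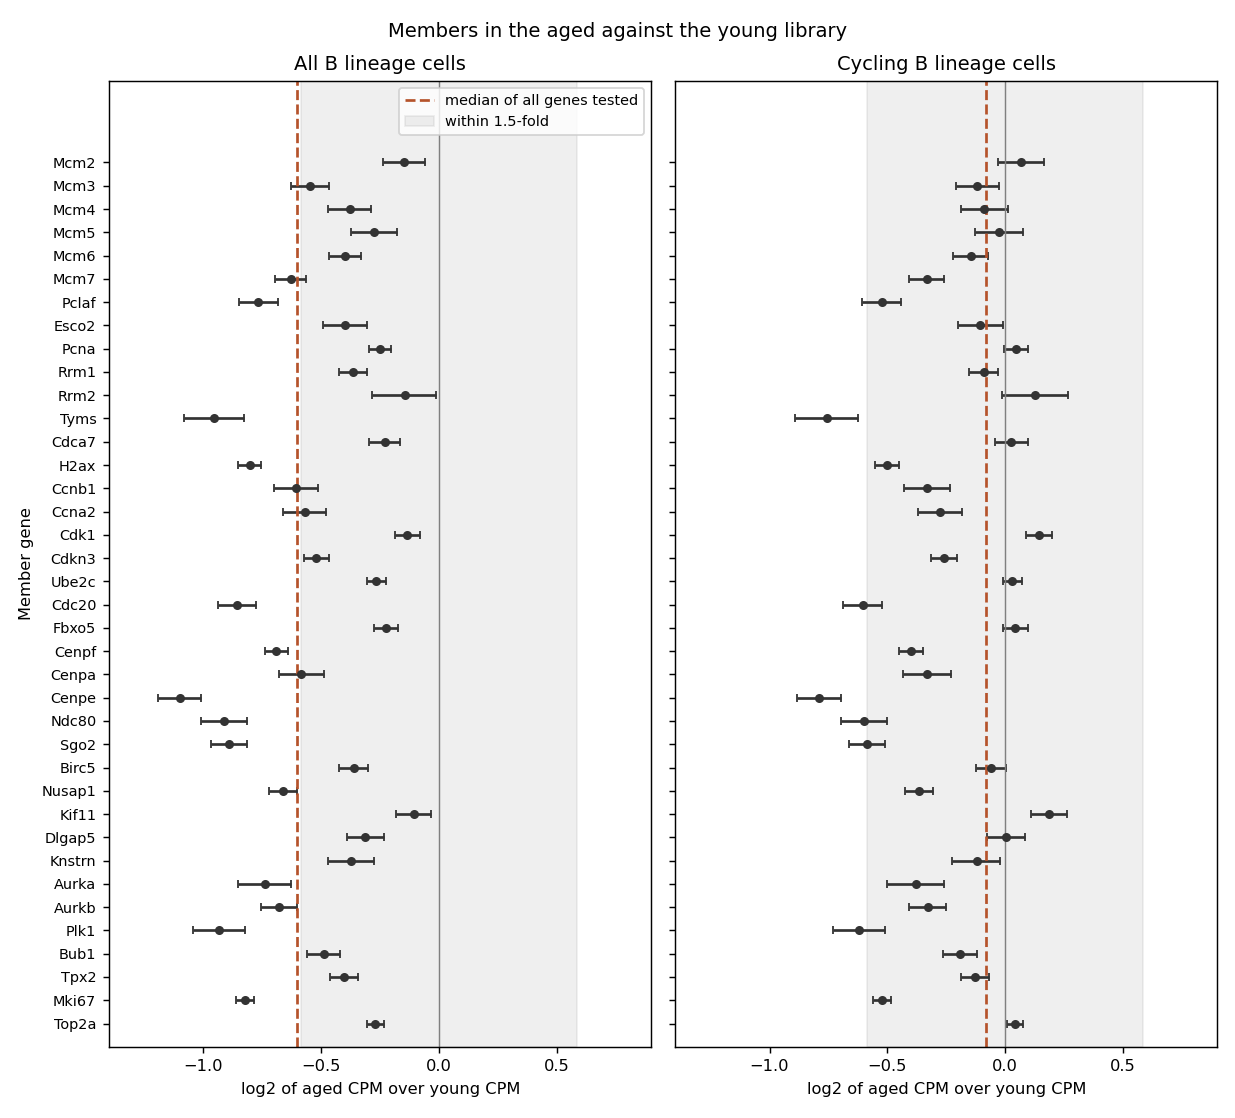
log2 ratio of aged over young CPM (horizontal axis) for each member in all (left) and in cycling (right) marker-list B lineage cells; bars are exact 95% counting intervals, the dashed line is the median of all genes tested and grey marks ratios within 1.5-fold. On the left members spread around the all-gene median of -0.60, and on the right Cenpe, Tyms, Plk1, Cdc20, Ndc80 and Sgo2 lie left of the grey band.

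Other lineages had fewer cells. In erythroid cells (48 aged, 129 young) 16 of 37 members with enough UMIs were higher in the aged library and 2 lower, where 37.2% of 4135 genes were higher and 11% lower, with medians of 0.40 and 0.38. All 6 helicase genes were among the higher ones, from 0.66 (Mcm7, 204 and 129 CPM) to 1.17 (Mcm3, 169 and 75.1 CPM), and within cycling erythroid cells they ran from 0.26 (Mcm7) to 0.77 (Mcm3). The 2 lower members were Ndc80 (25.2 and 64.4 CPM) and Plk1 (55.8 and 88.6 CPM). In myeloid progenitors (178 and 110 cells) 1 of 38 members was higher, Rrm2 at 26.8 and 14.7 CPM, and 6 were lower, where 12.1% of 8467 genes were higher and 12.2% lower. The medians were -0.28 and -0.03, and Cenpf was at 93.5 and 169.8 CPM (-0.86). In Camp cells (716 and 991 cells) 0 of 38 were higher and 8 lower, where 9.89% of 8315 genes were higher and 31% lower, with medians of -0.27 and -0.28. All 8 were S members, 5 of them helicase genes, such as Mcm6 at 13.2 and 33.9 CPM (-1.36), and none of the 19 G2/M members was called. None of these lineage differences was tested.

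Other cell cycle genes came from a list of 64 that are not members, taken here in B lineage cells of the marker list. Of other S genes 0 were higher and 6 of 19 lower, of other G2/M genes 0 and 11 of 30, and of G1 genes 0 and 8 of 13, beside the 51.6% lower of all genes. Hmgb2, a chromatin protein, was the most abundant in Cd79a cells, at 5025 (aged) and 7727 (young) CPM, followed by Dut, which clears dUTP, at 726 and 1115 and by Cks2, a Cdk1 partner, at 495 and 576 CPM. The largest ratios in Cd79a cells were those of Hjurp (1 aged and 52 young UMIs) and Myc (8.93 and 31.8 CPM, -1.83) downward, and of Cenpw (187 and 156 CPM, 0.27) upward among genes with at least 20 UMIs; Hells had 1 and 3 UMIs. The aged Myc value in Cd79a cells rests on 10 UMIs. In the marker-list cells Hjurp was at 3.56 and 4.40 CPM (-0.31), within the call. Myc was there at 17.7 and 29.1 CPM (-0.71), where the median of all genes was -0.60.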

How the data were processed

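UMI counts per gene and cell were deposited by the authors as 1 filtered 10x matrix per library, made with Cell Ranger 6.1.1 per the submitters' processing notes. No build or annotation of the genome is named in the sources used here. Cells were kept at 500 or more genes and at most 20% mitochondrial UMIs (13 mitochondrial genes). Lineage gates used raw UMIs, and counts were summed per library and lineage and given as CPM. Shares carry exact Clopper-Pearson 95% intervals, counts exact Poisson intervals and ratios exact conditional binomial intervals; UMIs and cells are not replicates, so no p-value is given. The size call was tested on simulated data with known changes. That simulation drew both libraries from the same pooled profile, so it cannot speak for data in which most genes shift one way. Scrublet in scanpy 1.11.5 called 0 doublets in either library, which is no working call, so doublets were kept and the top 8% of scores were left out as an alternative. edgeR 4.0.16 and DESeq2 1.42.0 served only as alternative scalings, with numpy 2.4.6, scipy 1.17.1, R 4.3.3 and matplotlib 3.10.9.

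Any member could be named; by role, values across lineages are given for the members with the highest and lowest level in Cd79a cells and for those at least 1.5-fold apart. Of other cycle genes the 3 most abundant and the 2 largest ratios each way were to be named. The members and lists were chosen with earlier results of these data known. The marker-list gates, the split by mitotic UMIs and the totals without the largest feature were chosen after seeing the data. Trac, Col1a2, Pecam1 and E2f1, which were on the marker or gene lists, were not analysed here, and some other genes of the marker lists are not reported or used here. Thinning used 1 seeded draw, with lineages kept from the full depth.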

Additional observations from a re-analysis of the deposited data

Results flagged for a closer look

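The aged over young ratio of the summed members had opposite signs in different lineages, which was not tested. For the S members the log2 ratio was 0.65 in erythroid cells, against -0.40 in the B lineage, -0.11 in myeloid progenitors and -0.31 in Camp cells. For the G2/M members it was 0.26 in erythroid cells, against -0.55, -0.34 and -0.11. Less the median of all genes in the same lineage, the S members stood at 0.27 in erythroid cells, 0.21 in the B lineage, -0.08 in myeloid progenitors and -0.03 in Camp cells, and the G2/M members at -0.12, 0.06, -0.31 and 0.17. Against that median the erythroid cells were thus no longer alone in sign.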

How the results depend on the processing

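No paired analysis was possible because there is 1 library per age, and no replicate could be left out. Over all cells the cycling share (19.9% aged, 20.1% young) was 17.5% aged at 200 genes, 33.7% and 24.6% at 1000 genes and 10% mitochondrial UMIs, 26.2% and 31.3% at 1 UMI, 17.4% and 18.6% at 5 UMIs, 28.8% and 31.3% with 5 UMIs of the other members in place of Top2a and Mki67, and 14.8% and 13.3% thinned. In Cd79a cells (47.1%, 34.9%) the aged share was 58.3% with the stricter filter, 33.0% at 1 marker UMI and 26.2% by the marker list. The young share was 43.0% at 1 UMI, 45.6% with the other members, 24.1% thinned, 21.9% and 65.5% at 1 and 5 marker UMIs, 38.3% with cells counted in every lineage and 19.6% by the marker list. A marker minimum of 5 left too few aged Cd79a cells for a value. In marker-list B cells (26.2%, 19.6%) the shares were 45.5% and 22.6% with the stricter filter, 31.9% and 29.8% at 1 UMI, 23.6% and 18.5% at 5 UMIs and 32.4% and 28.6% with the other members, and the young share was 14.03% thinned.

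Against 15 members apart in Cd79a cells, the count was 2 under edgeR TMM, 2 under DESeq2, 9 with cells weighted equally, 6 in cycling cells, 6 in marker-list cycling cells, 4 without the largest feature and 1 with that feature left out of the marker list. Thinning gave 21, of which 20 were higher in the aged library. Ratios of called members turned positive under thinning for Mki67 (0.35), Ccna2 (0.50), Cenpf (0.37), Cenpe (0.029), Pclaf (0.16), Nusap1 (0.35), Cdc20 (0.35), Sgo2 (0.30), Esco2 (1.01), Plk1 (0.86), Mcm7 (0.13) and H2ax (0.037). With cells weighted equally Mki67 (0.22), Cenpf (0.15), Nusap1 (0.029), Cdc20 (0.10), Sgo2 (0.25), Esco2 (0.58) and Aurka (0.058) turned. Esco2 and Aurka turned under TMM (0.020 and 0.026) and DESeq2 (0.037 and 0.043), and Esco2 in the marker list without the largest feature (0.014). The cause was not tested. The number of cells limits the rarer lineages: 48 aged erythroid cells and 59 young stromal cells.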
